A study of Homo sapiens with 9 samples.

Results

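The genes described here encode subunits of Polycomb repressive complex 1 (PRC1) and were read on human Affymetrix expression arrays in A673 cells, a Ewing sarcoma line that carries the EWS/FLI fusion. The list held 9 genes (BMI1, RING1, RNF2, CBX6, CBX7, PHC1, PHC2, PHC3 and PCGF2), and every probe set that the array annotation gives to one of them alone was taken. This gave 7 of the 9 genes, among 11963 genes with a probe set of their own, and 13 of the 22283 probe sets on the array. RING1, CBX6 and PHC3 each had 2 probe sets of their own, PCGF2 had 4, and CBX7, PHC1 and PHC2 had 1 each. BMI1 is named on 1 probe set only together with the COMMD3-BMI1 read-through transcript, so it has no value here, and the annotation used names no probe set for RNF2. A probe set shared by PHC1 and M6PR was left out for the same reason as that of BMI1.

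All 9 arrays came from A673 cells, in 5 groups. The first 3 groups were transfected for 48 hours with 5 nM siRNA: a control siRNA on 2 arrays, EZH2 siRNA no.2 on 2 arrays, and another EZH2 siRNA, which has no number in its title and is called the unnumbered siRNA here, on 1 array. A treatment of 24 hours was given to the other groups, of 2 arrays each: trichostatin A (TSA), which blocks histone deacetylases, at 100 nM, or its solvent DMSO at 0.01%. The study asked what EZH2, the histone methyltransferase of PRC2, contributes to Ewing tumour growth and differentiation. The titles call the replicates biological without saying whether cultures were separate. The p-values then measure no more than the spread among these samples, and that may be technical. DMSO and the control siRNA differ in both treatment and duration, and what either contributes to a difference between them cannot be told apart.

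PRC1 works beside PRC2. PRC2 writes a methyl mark on histone H3, the CBX subunits of canonical PRC1 read that mark, and the RING subunits, RING1 or RNF2, attach ubiquitin to histone H2A with the help of a PCGF partner such as BMI1 or PCGF2. The PHC subunits link complexes to each other through a SAM domain, which compacts chromatin. In Ewing sarcoma cells the pair of complexes is known for holding developmental genes silent, and BMI1 has been described as promoting growth of this tumour.

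PHC2 and PHC1 had the smallest p among the members in the EZH2 siRNA no.2 and the TSA comparison, so a stretch upstream of each is shown. Both are the 250 bases before an annotated start in RefSeq (GRCh38.p14), and capitals mark the ETS-family core CCGGAA, searched on both strands (TTCCGG on the other) because the FLI1 part of the fusion binds ETS sites. The PHC2 window belongs to the downstream of its 2 listed starts and lies at chr1:33349900-33350149 on the minus strand. The PHC1 window belongs to the upstream of its 2 starts and lies at chr12:8913593-8913842 on the plus strand.
PHC2: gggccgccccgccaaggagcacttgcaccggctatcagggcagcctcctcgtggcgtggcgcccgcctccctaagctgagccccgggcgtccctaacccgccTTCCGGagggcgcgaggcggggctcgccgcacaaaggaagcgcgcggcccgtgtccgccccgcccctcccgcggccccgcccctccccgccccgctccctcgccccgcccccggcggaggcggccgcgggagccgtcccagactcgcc
PHC1: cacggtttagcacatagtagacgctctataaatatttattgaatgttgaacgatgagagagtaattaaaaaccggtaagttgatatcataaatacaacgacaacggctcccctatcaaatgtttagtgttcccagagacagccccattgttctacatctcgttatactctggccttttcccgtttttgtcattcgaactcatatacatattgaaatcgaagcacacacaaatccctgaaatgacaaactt

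The PHC2 window held 1 match to CCGGAA, beginning 148 bases before the start, and the PHC1 window held none. They held 36 and 10 CG dinucleotides, but the windows at the other PHC2 and PHC1 starts held 21 and 23, so the genes are not told apart by this count. The median over the 35116 windows of RefSeq was 11 CG dinucleotides, and 14.5% of them held CCGGAA. The window at the other PHC1 start also held 1 match. The windows of BMI1, RING1, RNF2, CBX6, CBX7, PHC3 and PCGF2 and the other PHC2 window held none. The repeat GGAAGGAA, which is in 3.06% of all windows, was in none of the 12 windows of the 9 genes. The GC box GGGCGG, which is in 42.6% of all windows, was in 10 of the 12. These matches describe the letters only, and no binding was measured.

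The 18 hybridisation control probe sets, whose RNA is added before hybridisation, averaged 10.43 to 10.53 on the log2 scale on the 4 arrays of replicate 2 and 9.80 to 10.16 on the other 5. Fold changes given per replicate number below are therefore also those within these array sets. Those 5 arrays were not alike, however. Replicate 1 of EZH2 siRNA no.2 (9.81) and the unnumbered siRNA (9.80) lay below replicate 1 of the control siRNA (10.16), DMSO (10.13) and TSA (10.06). Median signals ran from 125 to 159 over the 9 arrays and the trimmed mean was 500.1 or 500.2 on each. All 9 of the measured Ewing sarcoma markers lay above the filter on low signals, with CD99 at a mean of 17676 and STEAP1 at 6989. Of the measured markers of other cells, 2 of 4 for blood (ITGAM 129 and CD3D 56.2), 1 of 5 for epithelium (KRT8 215), 1 of 4 for endothelium (PECAM1 112) and 4 of 5 for fibroblasts reached the filter at 53.3. PTPRC (22.5), EPCAM (21.0), VWF (20.7) and CDH5 (12.8) did not. The 4 fibroblast markers that reached the filter were COL1A2 (6404, near STEAP1), DCN (402), COL1A1 (370) and PDGFRB (334). The summed signal of the Ewing markers ran from 47074 to 57098 with the control siRNA and from 39912 to 41848 with siRNA no.2, which do not overlap, and from 48638 to 48924 in DMSO and 44335 to 46718 in TSA, which do not overlap either. That of the 5 fibroblast markers ran from 5441 to 6456 with the control siRNA, from 6704 to 6812 with siRNA no.2, from 7968 to 8897 in DMSO and from 5542 to 13808 in TSA. The part of these sums in the results was not tested. EZH2, the siRNA target, had signals of 1130.1 and 1172 on the control arrays, 572 and 270.6 with siRNA no.2 and 681 with the unnumbered siRNA. The fold change with no.2 was −1.48 on the log2 scale (SE 0.32), with an adjusted limma p of 0.920 over all probe sets. EZH2 stood at 990.1 and 861 in DMSO and at 1257 and 1055 in TSA. Since these are bulk samples, fewer cells and less RNA per cell cannot be told apart.

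Of the 13 probe sets, 12 passed the filter, from all 7 genes, and were tested with limma among 13665 probe sets. Of these 12, 0 passed an adjusted p of 0.05 in any of 5 comparisons, and neither did any other probe set (0.00% in each). At an unadjusted limma p under 0.05 there was 1 member probe set with EZH2 siRNA no.2 (5.27% of all probe sets, and 3.56% on its higher side), 1 with TSA (2.41%, and 1.24% higher), 1 with the unnumbered siRNA (5.01%, and 2.81% higher), 1 in DMSO against the control siRNA (CBX7, which passed the filter only through DMSO; 4.26%, and 2.93% higher) and 0 in the difference between the siRNA no.2 and TSA effects (1.71%). These are 1 of 12 or 8.33% at most, near the background, and so are no result about the members. With EZH2 siRNA no.2, 486 of all probe sets were higher at that p and 234 lower (1.71%). Giving every array 1 common median turned that split to 230 and 457, and took the median log2 fold change of all probe sets from 0.07 to −0.06. After quantile normalization the split was 352 and 304. With TSA, 170 were higher and 160 lower (1.17%), which became 94 and 209 with a common median and 155 and 194 after quantile normalization.

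**Figure D1:**
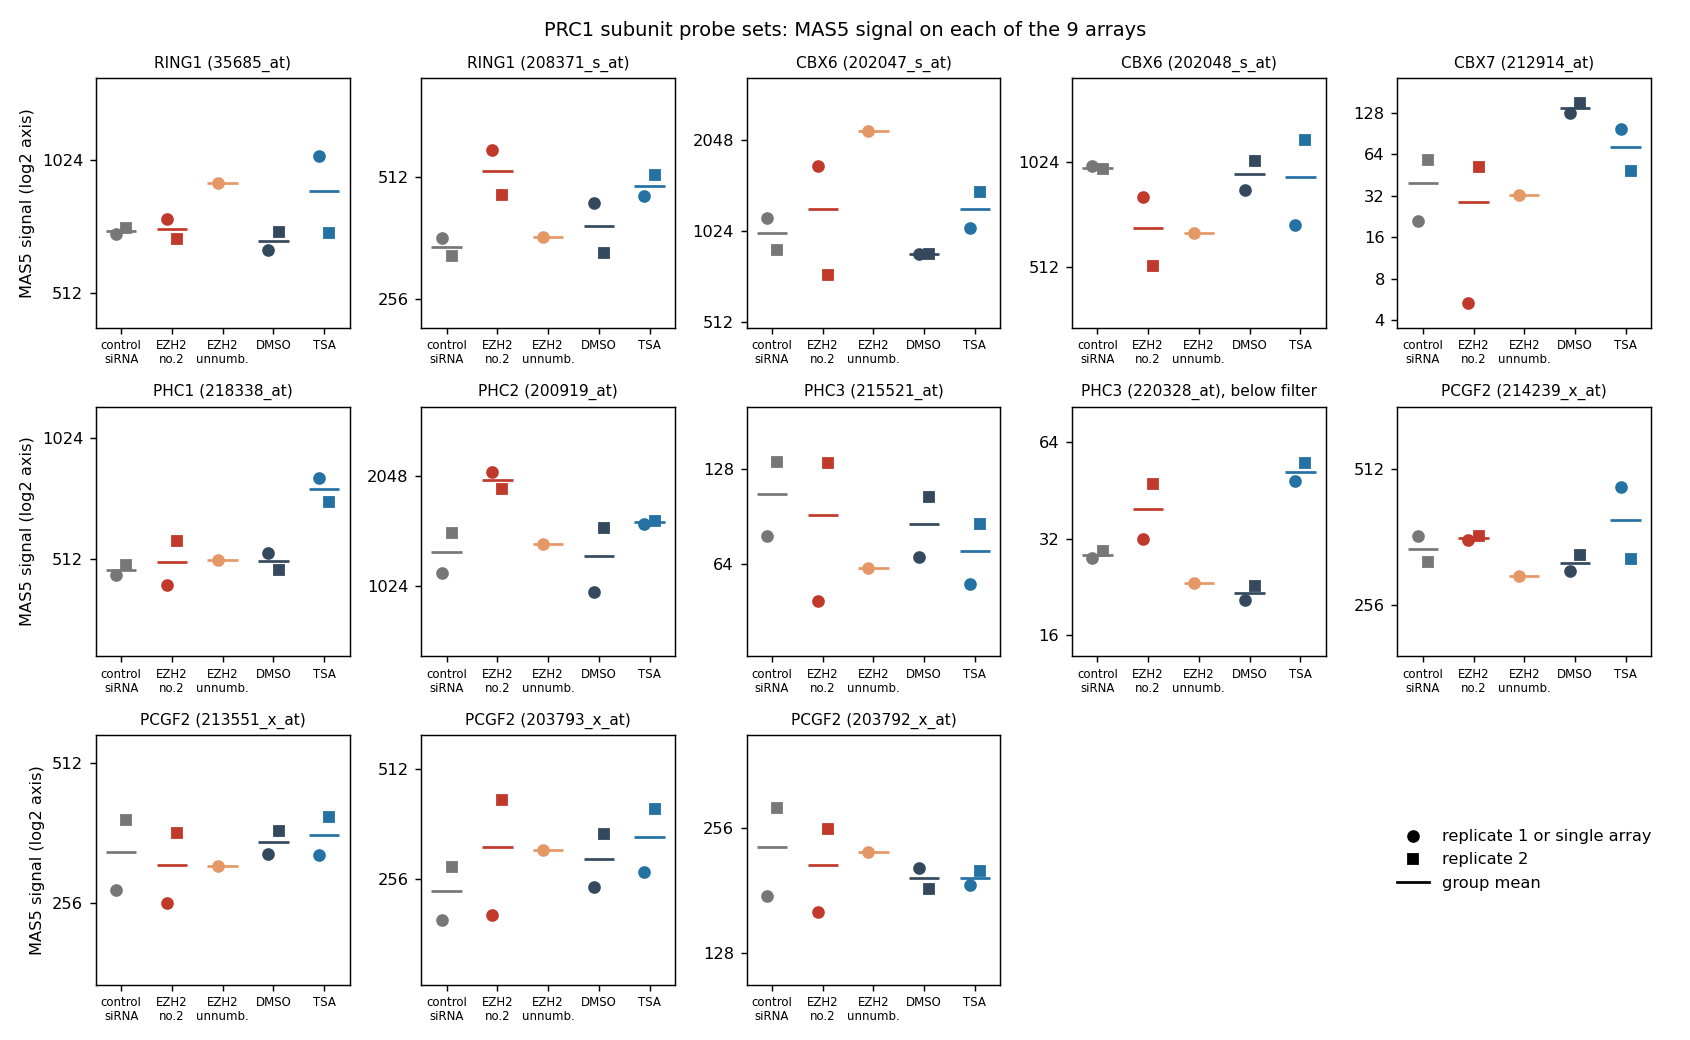
MAS5 signal of each of the 13 PRC1 probe sets on each of the 9 arrays, on a log2 axis with its own range in each panel, by treatment group. Circles are replicate 1 or the single array of the unnumbered siRNA, squares replicate 2 and bars group means. PHC2 is highest on the 2 arrays of EZH2 siRNA no.2 (2107 and 1886), and PHC1 on the 2 arrays of TSA (818 and 711).

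The RING subunit measured was RING1, which stands in for RNF2 as the ubiquitin ligase in part of the complexes, and its 2 probe sets did not give the same picture. On the probe set 208371_s_at, RING1 read 362 and 326 on the control siRNA arrays, against 597 and 463 with EZH2 siRNA no.2. Both siRNA no.2 arrays were thus above both control arrays, by 1.54 times in the means, and the log2 fold change was 0.58 (95% interval −0.01 to 1.17, limma adjusted p = 0.920). The unnumbered siRNA array read 363, within 2 signal units of the higher control array. In TSA this probe set read 459 and 516 against 441 and 333 in DMSO, so the groups did not overlap, with a log2 fold change of 0.32 (95% interval −0.27 to 0.92, limma adjusted p = 1.00). That value was 0.05 in replicate 1 and 0.60 in replicate 2, 0.13 without DMSO replicate 2 and 0.52 without DMSO replicate 1.

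The other RING1 probe set, 35685_at, read 696 and 717 on the control siRNA arrays, against 753 and 678 with EZH2 siRNA no.2, which overlap. The unnumbered siRNA array read 908, above both control arrays (log2 0.35, SE 0.33). With no.2 the log2 fold change was 0.02 (95% interval −0.57 to 0.60), against 0.58 on the first probe set. It turned to −0.12 with a common median for the arrays and to −0.02 after quantile normalization. In DMSO it read 639 and 704 and in TSA 1047 and 699, so that 1 TSA array stood above every other array and the other lay among the DMSO arrays. The log2 fold change of 0.34 with TSA was 0.06 without TSA replicate 1 and 0.62 without TSA replicate 2.

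CBX6 and CBX7 are chromodomain subunits, the part of PRC1 that reads the PRC2 mark. The 2 probe sets of CBX6 gave fold changes of opposite sign with the EZH2 siRNAs. The probe set 202047_s_at read 1131 and 886 with the control siRNA, 1684 and 735 with siRNA no.2, and 2192 with the unnumbered siRNA. The unnumbered array was the highest of all 9 and the no.2 replicate 2 array the lowest. Its fold change on the log2 scale was 1.11 for the unnumbered siRNA (SE 0.43, 95% interval 0.16 to 2.07, limma adjusted p = 0.952), the member with the smallest p in that comparison. With siRNA no.2 it was 0.15 (SE 0.35), with 0.56 in replicate 1 and −0.26 in replicate 2.

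The probe set 202048_s_at read 995 and 978 with the control siRNA, 812 and 513 with siRNA no.2 and 639 with the unnumbered siRNA. All 3 EZH2 siRNA arrays were below both control arrays here. The log2 fold change was −0.59 (95% interval −1.30 to 0.12, limma adjusted p = 0.922) with no.2 and −0.61 (95% interval −1.48 to 0.26, adjusted p = 0.952) with the unnumbered siRNA. The no.2 value was −0.27 without EZH2 siRNA no.2 replicate 2 and −0.91 without EZH2 siRNA no.2 replicate 1. These comparisons share their control arrays. In DMSO and TSA the values of 202048_s_at overlapped, at 853 and 1034 against 673.2 and 1188. On 202047_s_at the TSA arrays, at 1045 and 1380.1, lay above the DMSO arrays, at 858 and 859.6, with a log2 fold change of 0.47 (95% interval −0.31 to 1.25, limma adjusted p = 1.00).

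CBX7 had the widest spread within groups among the members (SD 0.62 on the log2 scale, against a median of 0.31 over all probe sets), and its mean signal of 66.0 lay just above the filter. It passed only through the DMSO arrays, since the mean of the other 7 arrays was 44.9, so its differences from DMSO are a description and not a test. It read 21.0 and 57.8 with the control siRNA, 5.30 and 52.1 with siRNA no.2 and 32.6 with the unnumbered siRNA, which overlap. In DMSO it read 128 and 152, above every array of the other groups, and in TSA 97.4 and 48.2. The log2 fold change of DMSO against the control siRNA was 1.41 (SE 0.53). It was 0.85 with the pseudocount at the 40th percentile of all signals, and 1.83 without control siRNA replicate 2. TSA against DMSO gave −0.79 (SE 0.53), with −0.32 in replicate 1 and −1.27 in replicate 2. These comparisons share the DMSO arrays, and the TSA arrays overlap those of the control siRNA.

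The PHC subunits PHC2 and PHC1 gave the smallest p among the members with EZH2 siRNA no.2 and with TSA. PHC2 read 1116 and 1431 on the control siRNA arrays, against 2107 and 1886 with EZH2 siRNA no.2. Both no.2 arrays were above every other array, with means of 1997 ± 156 and 1273 ± 222 (SD, n = 2 each), or 1.57 times. This gave a log2 fold change of 0.65 (SE 0.27, 95% interval 0.06 to 1.23, limma adjusted p = 0.920), and 0.90 in replicate 1 and 0.39 in replicate 2. Over the 21 alternatives the value ran from 0.46, with the 3 EZH2 siRNA arrays pooled, to 0.82, without control siRNA replicate 2. The unadjusted limma p of PHC2 was under 0.05 in 16 of the 21. The alternatives where it was not were the pooling of those 3 arrays, a common median for the arrays, and some that left out 1 array. All alternatives reuse the same arrays, so they are no independent support. With the unnumbered siRNA PHC2 read 1340.3, between the control arrays (log2 0.08, 95% interval −0.63 to 0.80). In DMSO it read 992 and 1483 and in TSA 1514 and 1547, which did not overlap but were close for replicate 2 (log2 0.60 in replicate 1 and 0.06 in replicate 2). The TSA fold change of PHC2 was 0.33 (SE 0.27), 0.05 without DMSO replicate 1 and 0.61 without DMSO replicate 2. The siRNA no.2 effect minus the TSA effect was 0.32 (95% interval −0.51 to 1.15), so a difference between the treatments was not detected.

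PHC1 read 530.0 and 482 in DMSO and 818 and 711 in TSA. Both TSA arrays were above all other arrays, with means of 764 ± 75.5 against 506 ± 33.9 (SD, n = 2 each), or 1.51 times. On the log2 scale the fold change was 0.57 (SE 0.25, 95% interval 0.01 to 1.13, limma adjusted p = 1.00), with 0.60 in replicate 1 and 0.54 in replicate 2. Over the 20 alternatives it ran from 0.47 to 0.67, and the unadjusted p was under 0.05 in 8 of them. The siRNA arrays lay close together, at 467 and 495 for the control, 440.2 and 569 for no.2 and 509 for the unnumbered siRNA. With no.2 the log2 fold change was 0.06 (95% interval −0.50 to 0.62), and −0.08 with a common median for the arrays. The siRNA no.2 effect minus the TSA effect was −0.51 (95% interval −1.31 to 0.28), the smallest p of any member for that difference.

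PHC3 was dim. The probe set tested, 215521_at, read 78.5 and 135 with the control siRNA, 49.0 and 134 with siRNA no.2, 62.0 with the unnumbered siRNA, 67.2 and 104 in DMSO, and 55.3 and 85.6 in TSA. Replicate 2 was above replicate 1 in each of the 4 groups with 2 arrays, and the treated and control arrays overlapped in both main comparisons. The log2 fold changes were −0.25 with no.2 (SE 0.45) and −0.21 with TSA (SE 0.45). The other probe set, 220328_at, had a mean of 34.1, under the filter, and was not tested in the main fit. Its mean in TSA was 2.38 times that in DMSO, against 0.82 times for 215521_at. It entered only the alternative without the filter. There 2 of 13 members had an unadjusted limma p under 0.05 with TSA, as did 622 of all 19065 probe sets, and 0 passed the adjusted threshold. It read 20.6 and 22.8 in DMSO and 48.4 and 55.0 in TSA, which did not overlap, and 27.9 and 29.2 with the control siRNA against 32.0 and 47.5 with no.2. The unnumbered siRNA array, at 23.2, lay below both control arrays.

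PCGF2, also called MEL18, is, like BMI1, a PCGF partner of RING1 and RNF2 in canonical PRC1. Its 4 probe sets all carry the x suffix, with which Affymetrix marks probe sets that may also bind other transcripts. On the brightest, 214239_x_at, PCGF2 read 364 and 318 with the control siRNA, 357 and 364 with siRNA no.2 and 297 with the unnumbered siRNA. The same probe set read 304 and 331 in DMSO and 467 and 323 in TSA, so that TSA replicate 1 was the highest array and TSA replicate 2 lay between the DMSO arrays. Treated and control arrays overlapped on all 4 probe sets in both main comparisons.

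For 214239_x_at the log2 fold change with no.2 was 0.08, and −0.06 with a common median for the arrays. The log2 fold changes of the 4 PCGF2 probe sets ran from −0.13 to 0.31 with EZH2 siRNA no.2 and from 0.0030 to 0.27 with TSA. The probe set 203793_x_at gave the 0.31, with 197 and 277 for the control siRNA and 204 and 423 for no.2. Its value was −0.18 without EZH2 siRNA no.2 replicate 2 and 0.79 without replicate 1. Replicate 2 was above replicate 1 in all 4 groups on 203793_x_at and on 213551_x_at, where PCGF2 read 273 and 386 for the control siRNA and 256 and 363 for no.2. On 203792_x_at, the dimmest of the 4, PCGF2 read 175 and 285 for the control siRNA, 161 and 255 for no.2, 223 for the unnumbered siRNA, 204 and 182 in DMSO and 187 and 201 in TSA. The 95% interval for 214239_x_at was −0.52 to 0.67 with no.2 and −0.32 to 0.87 with TSA, and differences inside these limits could not be resolved with 2 arrays a group.

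**Figure D2:**
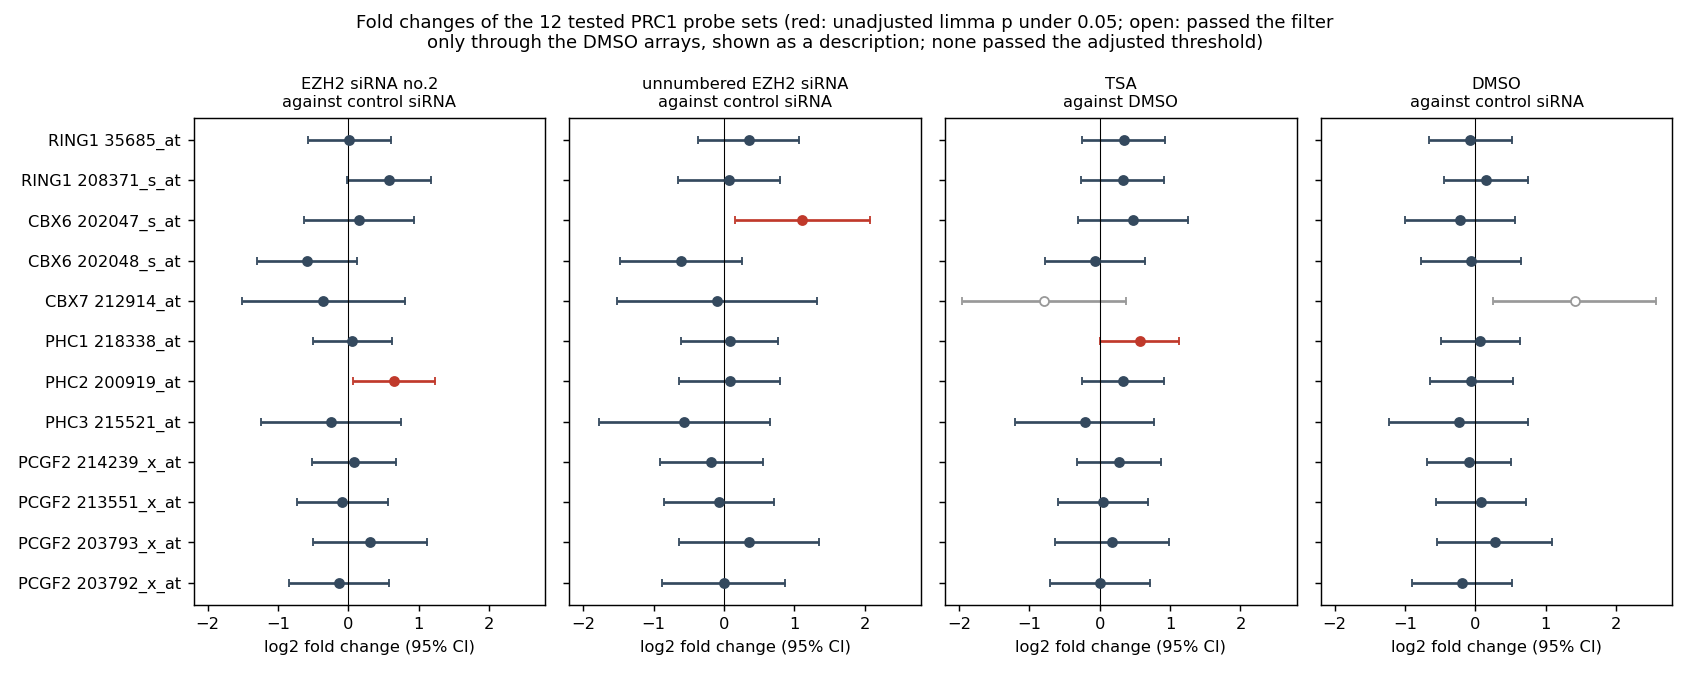
Log2 fold change with 95% interval from limma for the 12 tested PRC1 probe sets in 4 comparisons, with red for an unadjusted p under 0.05 and open grey for CBX7 where DMSO enters, given as a description because it passed the filter only through the DMSO arrays. The red probe sets are PHC2 with EZH2 siRNA no.2 (0.65), CBX6 202047_s_at with the unnumbered siRNA (1.11) and PHC1 with TSA (0.57). None passed the adjusted threshold.

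Across the 12 tested probe sets, 7 log2 fold changes were above 0 and 5 below with EZH2 siRNA no.2, where 58.2% of all probe sets were above 0, and the members' median was 0.04 against 0.07 for all. Groups did not overlap for 2 members on the higher side (PHC2 and RING1 208371_s_at), or 16.7% against 22.4% of all probe sets. On the lower side it was 1 (CBX6 202048_s_at), or 8.33% against 12.8%. With TSA, 9 of 12 were above 0 against 55.3% of all probe sets, with a median of 0.22 against 0.04. Groups did not overlap for 4 members on the higher side (PHC1, PHC2, RING1 208371_s_at and CBX6 202047_s_at), or 33.3% against 16.1%. On the lower side it was 1 (CBX7, which passed the filter only through DMSO), or 8.33% against 12.1%. The probe sets of one gene share their transcript and are not independent, and no member passed the test, so nothing particular to the members follows from these counts.

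Order of the groups differed between members. TSA had the highest mean for PHC1 and for 3 of the 4 PCGF2 probe sets, EZH2 siRNA no.2 for PHC2 and RING1 208371_s_at, and DMSO for CBX7. For PHC2 the no.2 arrays stood apart from the TSA arrays, which stood apart from the unnumbered array, while the unnumbered, control siRNA and DMSO arrays overlapped. In PHC1 only the TSA arrays stood apart. CBX7 had only its DMSO arrays apart from the next group, but it passed the filter only through those arrays, so this is a description. For PHC3 215521_at, CBX6 202048_s_at, RING1 35685_at and PCGF2 203792_x_at, 203793_x_at and 213551_x_at, every neighbouring pair of groups overlapped.

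The likest genes over the 9 arrays were taken by the smallest root mean square difference of mean-centred log2 signals. For PHC2 these were MARK3 (0.12), PTPN12 (0.12) and BAG3 (0.12), where the median over all probe sets was 0.41. For PHC1 they were GPX3 (0.11), PLEKHA5 (0.11) and CRABP2 (0.11), against a median of 0.39. These genes were picked as the smallest differences over all probe sets tested, so they lie below the medians by choice. A shared pattern was not tested.

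Other Polycomb genes were given by their brightest probe set. Of 44 listed, 32 were tested, and 0 passed the adjusted threshold with EZH2 siRNA no.2 or with TSA. With no.2, 15 were above 0 and 17 below, and their median was −0.02 against 0.08 for the brightest probe sets of all 9100 genes. With TSA, 19 were above 0 and 13 below, with a median of 0.05 against 0.03. Within PRC2, 8 genes were tested, and JARID2, which helps bring PRC2 to its sites, read 932 ± 168 with no.2 against 543 ± 14.9 with the control siRNA (n = 2 each). JARID2 differed by 0.74 on the log2 scale (SE 0.26, limma adjusted p = 0.920). Against the same control arrays, DMSO gave 0.62 for JARID2 and the single array of the unnumbered siRNA gave 0.60. PHF1, a PRC2 accessory subunit, read 1634 ± 144 against 1160.3 ± 17.0 (log2 0.48, limma adjusted p = 0.923). For PHF1, DMSO against the same control arrays gave 0.52 and the unnumbered siRNA gave 0.67.

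Among 19 other PRC1 genes tested, CSNK2B, the regulatory subunit of casein kinase II, read 3752 ± 295 with no.2 against 5207 ± 475 (log2 −0.47, limma adjusted p = 0.920). SCML1, a Scm-like gene, gave −0.58 (SE 0.31). BCOR, a subunit of variant PRC1, read 265 ± 23.8 in TSA against 151 ± 42.5 in DMSO (log2 0.74, n = 2 each), with 0 calls at the adjusted threshold. For BCOR, DMSO against the control siRNA gave −0.38, a comparison that shares the DMSO arrays. USP7, a deubiquitinase found in variant PRC1, came next by p in TSA, at 0.31 (SE 0.25), and the median of the 19 genes was −0.10 with no.2 and 0.05 with TSA. Within PRC2, RBBP7 and MTF2 had the smallest TSA p, with log2 fold changes of −0.32 (SE 0.22) and −0.30 (SE 0.26). A list of deubiquitinases, which act on the mark that PRC1 writes or on other ubiquitin, and of their cofactors had 5 genes tested. These were USP16, USP21, BRCC3 and the cofactors ASXL1 and ASXL2, with medians of 0.23 with no.2 and 0.06 with TSA. CBX2, a further reader subunit, had a mean of 20.8, under the filter, and 11 listed genes had no probe set of their own in the annotation used.

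Of 28 genes listed as known Polycomb targets, 17 were tested, and whether Polycomb holds them down in these cells was not measured. Some were bright with the control siRNA, such as HOXB7 (1147) and HOXC6 (1029), and others dim, such as HOXB6 (35.3). A further 4 were under the filter. With no.2, 11 were above 0 and 6 below with a median of 0.27, and with TSA 13 and 4 with a median of 0.15, and 0 passed the adjusted threshold in either. Over all 9100 genes, 58.5% were above 0 with no.2 and 53.7% with TSA. With the unnumbered siRNA the same list had 7 above 0 and 10 below, with a median of −0.06. HOXD11 read 1025 ± 60.3 with no.2 against 685 ± 167 (log2 0.58, limma adjusted p = 0.920, n = 2 each), and WT1 gave 0.61 (SE 0.35). DMSO against the same control arrays gave 0.39 for HOXD11 and 0.41 for WT1, and the unnumbered siRNA gave 0.18 and −0.06. In TSA, HOXC10 read 846 ± 27.9 against 1314 ± 150.2 in DMSO (log2 −0.62, limma adjusted p = 1.00), and PAX6 gave −0.64 (SE 0.36). DMSO against the control siRNA gave 0.78 for HOXC10, a comparison that shares the DMSO arrays.

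**Figure D3:**
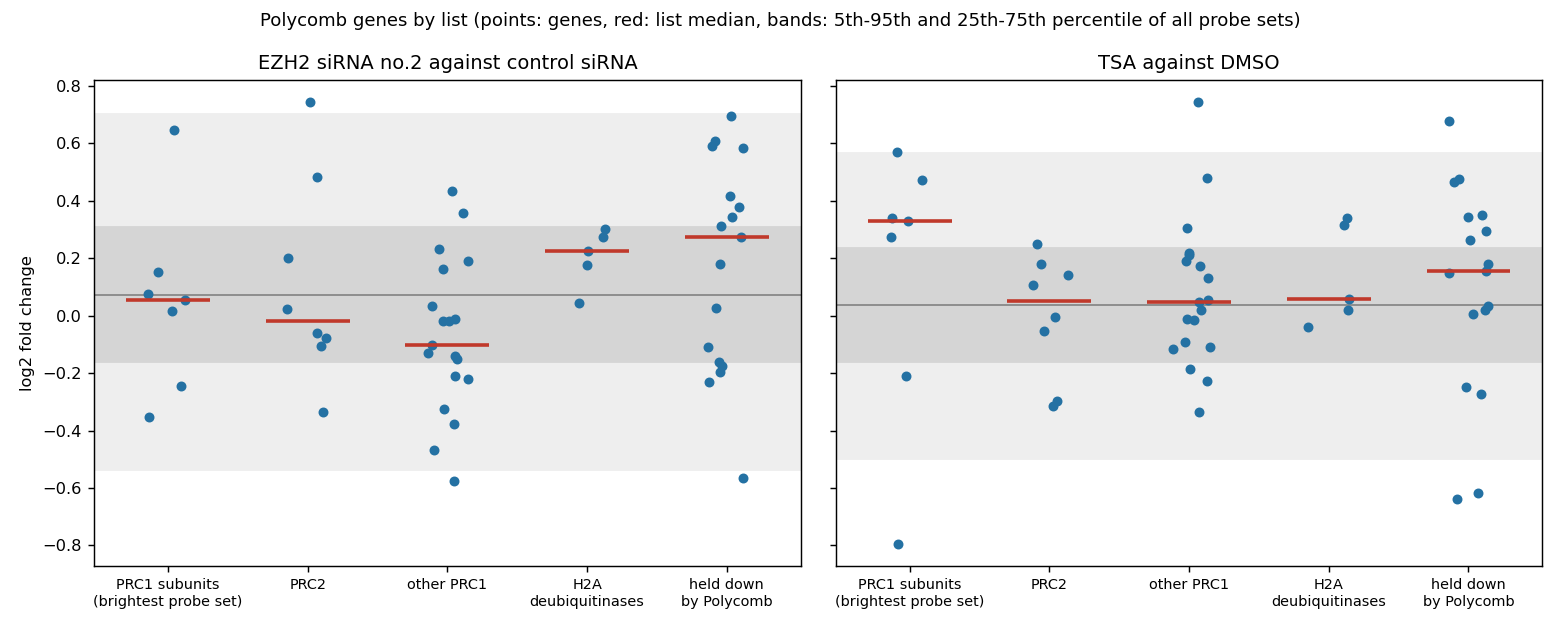
Log2 fold change of each tested gene by its brightest probe set, for the PRC1 subunits and 4 further lists, with EZH2 siRNA no.2 (left) and TSA (right). Red bars are list medians, and the bands span the 5th to 95th and the 25th to 75th percentile of all probe sets with their median as a grey line. The PRC1 median is 0.06 on the left and 0.33 on the right. CBX7 is the lowest PRC1 gene in both panels. It passed the filter only through the DMSO arrays, so its value on the right is a description and not a test.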

How the data were processed

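RNA from 9 samples was hybridised to Affymetrix arrays. MAS5 gave the intensity values that the authors deposited, per the submitters' processing notes. Its version and scaling are not given in the sources used here, and no detection calls were used. Signals were turned into log2(signal + 25.1), the 20th percentile of all values, so fold changes of dim probe sets are understated. Of 22283 probe sets, 68 are controls, 19065 name 1 gene, 1043 several and 2107 none. Those with 1 gene and a mean of at least 53.3 (the 30th percentile) were tested one by one, 13665 in all, from 9100 genes.

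A model of group means over the 9 arrays was fitted in limma 3.58.1 under R 4.3.3 (eBayes with trend, 4 residual degrees of freedom), two-sided, with Benjamini-Hochberg adjustment over all 13665 and a threshold of 0.05. The single array of the unnumbered siRNA was assumed to vary like the groups of 2. The fit was tested on simulated data for EZH2 siRNA no.2 against the control siRNA, with 200 probe sets changed in each of 10 simulations. It recovered 10.8% of 2-fold, 67.4% of 4-fold and 90.6% of 8-fold changes, with a mean of 4 false calls. Most 2-fold changes were thus missed, so the lack of calls does not show a lack of change. An exact permutation test was not used, since 2 arrays against 2 cannot pass the threshold.

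The members and lists were chosen with earlier results of these data known. Every member probe set was named, EZH2 was named as the siRNA target, and from the PRC2, other PRC1 and repressed gene lists the 2 genes with the smallest p in each main comparison. Alternatives covered the pseudocount, filter, probe sets per gene, scaling, trend, groups fitted, blocks and each array left out.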

Additional observations from a re-analysis of the deposited data

How the results depend on the processing

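Across 21 alternatives, no member probe set passed the adjusted threshold in any of the 5 comparisons. Of the other probe sets, 1 passed in 1 alternative: ARTN with the unnumbered siRNA (log2 −2.91, limma adjusted p = 0.0465), when only the 3 arrays of those groups were fitted. Of 1165 member fold changes under alternatives, 70 had another sign than the main value and 19 moved by a standard error or more, 18 of these on leaving out 1 array and 1 (CBX7 in DMSO against the control siRNA) with the higher pseudocount. The pairing by replicate number was checked: the differences of replicate 1 and 2 correlated across probe sets at 0.0981 to 0.409 between groups, the labels give no shared batch or day, and the number was not taken as a pair. With the replicate number as a block, 0 probe sets passed the adjusted threshold with EZH2 siRNA no.2 and 0 with TSA, and the probe sets at an unadjusted p under 0.05 went from 720 to 1182 and from 330 to 600. Members at that p went from 1 (PHC2) to 2 (PHC2 and RING1 208371_s_at) with no.2 under this block, and also under the next one, and stayed at 1 with TSA. A block from the 18 hybridisation control probe sets, which part the 4 arrays of replicate 2 from the other 5, gave 1183 and 597. With 2 arrays a group, the number of arrays limits the precision, and dim probe sets such as those of CBX7 and PHC3 are limited by signal.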
